A study of Homo sapiens with 6 samples.

Results

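Gadd45a, Gadd45b and Gadd45g, the genes of the Gadd45 family of stress proteins, are 3 of the 22413 genes listed for BaF3-T315I cells exposed to I13. They were taken by name and were selected on the difference between I13 and control samples that earlier results of these data had shown, so that this difference is described by its values, and counts of calls among them are given only beside those over all genes. BaF3-T315I is a murine blood cell line that was stably transfected with BCR-ABL carrying the T315I mutation, and all 6 samples carry that transgene. The control group held 3 samples, labelled only as control with no vehicle, dose or time. The I13 group held 3 samples exposed to 1.1 µM of I13, an inhibitor of histone deacetylases derived from indole-3-butyric acid, for 48 h. Only this line was sequenced, and the labels do not say whether it is 1 clone or whether the samples of a group came from separate cultures. The p-values therefore measure the spread between these samples, which may be technical.

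GADD45 proteins are small acidic proteins of the nucleus and cytoplasm that have no known enzyme activity and act by binding other proteins. They activate the kinase MAP3K4, which stands above the p38 and JNK stress kinases, they can take CDK1 out of its complex with cyclin B1 at the G2/M checkpoint, and they take part in excision repair and in the removal of DNA methylation. Gadd45a is a classic target of p53 and of the integrated stress response, Gadd45b was cloned as an early gene of myeloid differentiation (MyD118) and is induced by NF-κB and TGF-β, and Gadd45g is induced by cytokines.

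The levels are FPKM, the fragments on a gene per kilobase of its length and scaled to the depth of each library. The library totals that scale the FPKM, as computed back from them, were between 16762119 and 17722950 fragments. Of these, 99.45 to 99.48% lay on the listed genes, so the totals may leave out fragments mapped elsewhere. Correlations of log2(FPKM + 0.1) across genes, which are not independent replicates, ran from 0.962 to 0.967 among controls, from 0.962 to 0.968 among I13 samples and from 0.945 to 0.967 across the groups. Of 13 markers of the labelled line, 11 were listed, and the IL-3 receptor genes Il3ra, Csf2rb and Csf2rb2 were present in every sample. Of the genes of the B lineage, Cd79a was at 14.1 to 27.5 FPKM and Cd79b at 3.57 to 6.94 FPKM, whereas Ebf1, Pax5, Vpreb1 and Igll1 had a mean of at most 0.0434 FPKM. The 11 markers together summed to 475 to 936 FPKM in the controls and 958 to 1711 FPKM after I13, and Csf2rb and Csf2rb2, close paralogs that may share reads, were called higher with the replicate block described below (adjusted p = 0.0313 and 0.0312 from limma, 0.22 and 0.165 without it). Of 15 markers of other cell types, 12 were listed and 7 of these, among them Cd3e, Alb, Mpo, Elane, Csf1r and Pf4, had a mean of at most 0.067 FPKM. Their sum was 39.8 to 51.2 FPKM in the controls and 54.7 to 57.7 FPKM after I13. The alpha-globin gene Hba-a1, which has a near-identical copy, had 1.18, 0.21 and 0.559 FPKM in the controls, in the order of replicates 1 to 3, and 5.66, 2.94 and 2.11 FPKM after I13 (adjusted p = 0.0384 from limma with the block, 0.116 without it). The other 4 markers tested were Pecam1 at 35.5 to 45.9 FPKM, Gp9 at 2.19 to 6.70 FPKM, Lyz2 at 1.42 to 1.77 FPKM in the controls and 2.04 to 4.08 FPKM after I13, and Hbb-bt, at most 0.0807 FPKM in the controls and up to 4.58 FPKM in I13 replicate 2 and called only by voom with the block. All 5 had a higher mean log2 level after I13, and 3 of 5 lay higher without overlap, where 9.82% of all genes tested did. Hbb-bt was among these 3, but its lowest I13 value, 0.08125 FPKM in replicate 3, barely exceeded its highest control value of 0.08067 FPKM. Only markers with a mean of at least 0.5 FPKM over all samples were tested, and Hbb-bt reached that mean only through I13 replicate 2. Nothing is therefore read from the count of markers without overlap. The part of these markers in the values below was not tested, and in such bulk samples a change in the mixture of cells and a change in the RNA of each cell cannot be told apart.

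Gadd45g, the cytokine-induced member, had the highest level of the family after I13. Control replicates 1, 2 and 3 had 2.89, 4.69 and 6.29 FPKM. The I13 replicates had 7.26, 11.3 and 8.52 FPKM. The groups did not overlap, although control replicate 3 lay much closer to I13 replicate 1 than to control replicate 1. The means were 4.62 ± 1.70 FPKM in the control and 9.02 ± 2.06 FPKM after I13 (SD, n = 3 each), a ratio of 1.95. On the log2(FPKM + 0.1) scale, which understates differences of low genes, I13 minus control was 0.99 with a standard error of 0.29. The same-numbered samples differed by 1.30, 1.25 and 0.43 in replicates 1, 2 and 3, so the third pair showed the least difference.

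Gadd45b, the early gene of myeloid differentiation, was nearly level in the controls. Its controls, in the same order, stood at 3.76, 3.78 and 3.64 FPKM. Its I13 samples stood at 4.79, 6.12 and 6.94 FPKM. Every I13 sample thus lay above every control, and the I13 samples were spread far more widely than the controls. The means were 3.73 ± 0.0762 and 5.95 ± 1.09 FPKM (SD, n = 3 each), a ratio of 1.59. The log2 difference was 0.64 with a standard error of 0.15, made up of 0.34, 0.68 and 0.91 in the pairs of replicates 1, 2 and 3.

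Gadd45a, the p53 target, was the member whose groups overlapped. The level was 2.82, 3.73 and 3.28 FPKM in the controls. After I13 it was 2.38, 6.26 and 5.21 FPKM. I13 replicate 1 lay below every control, while the other I13 replicates lay above every control. The means were 3.28 ± 0.457 and 4.62 ± 2.01 FPKM (SD, n = 3 each), a ratio of 1.41, and the log2 difference of 0.38 was close to its standard error of 0.34. In the pairs the difference was -0.23 in replicate 1, 0.73 in replicate 2 and 0.65 in replicate 3. Without I13 replicate 1 the log2 difference was 0.79 and the lowest I13 value of 5.21 FPKM stood above the highest control value of 3.73 FPKM. With that sample left out, 12.7% of all genes tested lay higher after I13 without overlap, so the separation is not particular to Gadd45a. Without I13 replicate 2 or 3 the log2 difference of Gadd45a was 0.11 or 0.24.

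**Figure D1:**
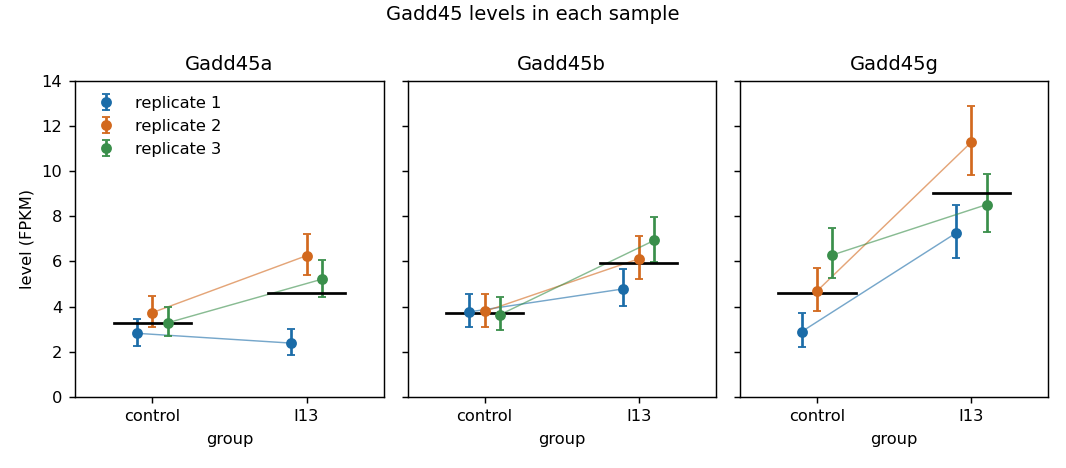
Level in FPKM (vertical axis, from 0) of Gadd45a, Gadd45b and Gadd45g in the control and I13 groups (horizontal axis). Points are single samples coloured by replicate number and joined to the same number in the other group, vertical bars are exact Poisson intervals of 95% for the fragment count of that sample and cover counting error only, and black lines are group means. The I13 points of Gadd45b and Gadd45g lie above all control points, whereas Gadd45a in I13 replicate 1, at 2.38 FPKM, lies below its controls.

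Behind these levels stood modest numbers of fragments. Gadd45a was covered by 88 to 116 fragments in a control and 74 to 185 in an I13 sample, on a length of 1764 bases. Gadd45b had 102 to 106 and 134 to 193 fragments on 1589 bases, and Gadd45g had 60 to 130 and 150 to 222 fragments on 1173 bases. The fragments were not counted by molecular identifiers, so that intervals from them cover counting error only. For Gadd45a the exact Poisson interval of 95% was 1.87 to 2.99 FPKM in I13 replicate 1 and 5.39 to 7.23 FPKM in I13 replicate 2, so the distance between these samples of 1 group was beyond counting error.

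The spread of the members among replicates differed, and so did its relation to counting error. The coefficient of variation of Gadd45b over the controls was 2.04%, below the 9.78% that counting alone gives on average at its fragment numbers. The close agreement of its controls is thus tighter than these libraries can resolve. Gadd45g varied by 36.8% over the controls against 10.6% from counting, and its highest control was 2.18 times its lowest. After I13 the coefficient of variation was 43.5% for Gadd45a, 18.3% for Gadd45b and 22.9% for Gadd45g, against 8.95%, 7.89% and 7.48% from counting. Ranked by the SD of log2(FPKM + 0.1) over the controls among the 12163 genes with a mean of at least 0.5 FPKM over all samples, Gadd45b stood at percentile 2.3, Gadd45a at percentile 56.3 and Gadd45g at percentile 91.5.

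Since FPKM are set per length, the members can be ordered by level within a sample. In the controls the order of the means was Gadd45g, Gadd45b and Gadd45a, but the ranges of all pairs of members overlapped. Gadd45a was the lowest member in 3 of 3 controls, and Gadd45b exceeded Gadd45g in 1 of 3, replicate 1. After I13 Gadd45g exceeded both other members in 3 of 3 samples and its range overlapped with neither. Its distance was 1.06 ± 0.483 from Gadd45a and 0.59 ± 0.294 from Gadd45b on the log2 scale (SD over 3 samples). Gadd45a and Gadd45b overlapped after I13, and Gadd45a was the higher in 1 of 3 samples, replicate 2.

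The summed level of the family was 9.46, 12.2 and 13.2 FPKM in the controls and 14.4, 23.7 and 20.7 FPKM after I13, by replicate number. The sums of the groups did not overlap, and I13 replicate 1 lay nearer to control replicate 3 than to the other I13 samples. The mean sum was 11.6 ± 1.94 FPKM in the control and 19.6 ± 4.72 FPKM after I13 (SD, n = 3 each), a ratio of 1.69. Gadd45g made up 38.8% ± 8.56 of the sum in the control and 46.4% ± 4.68 after I13. The share of Gadd45b was 32.8% ± 6.29 and 30.9% ± 4.34, and that of Gadd45a was 28.4% ± 3.10 and 22.7% ± 5.42 (SD, n = 3 each). For each member the shares of the groups overlapped. Among the genes tested the members lay low to middle, with percentiles of level that ran from 23.4 for Gadd45a in I13 replicate 1 to 61 for Gadd45g in I13 replicate 2.

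**Figure D2:**
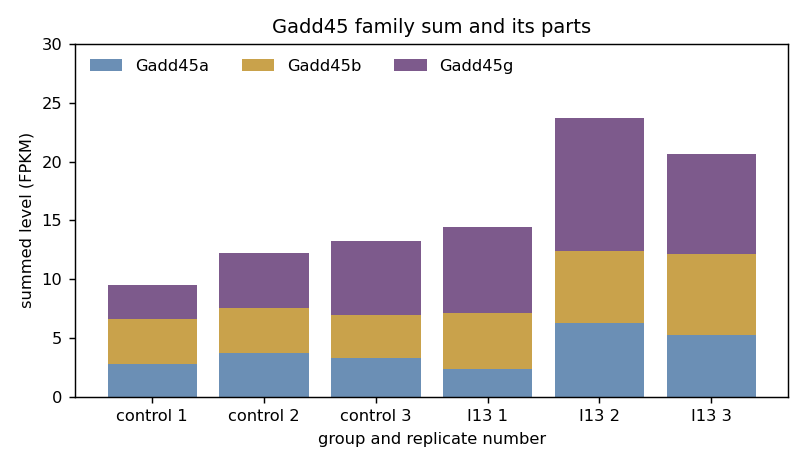
Summed FPKM of the family (vertical axis, from 0) in each sample (horizontal axis, group and replicate number), with the parts of Gadd45a, Gadd45b and Gadd45g stacked from below. The sum lies between 9.46 and 13.2 FPKM in the controls and between 14.4 and 23.7 FPKM after I13, and the part of Gadd45g is the largest in every I13 sample.

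For orientation, the same contrast was fitted over all 12163 genes with limma, and a gene was called at a Benjamini-Hochberg adjusted p below 0.05 and an absolute log2 difference of at least 0.58. In this fit 0 of the 3 members were called, where 0.0411% of all genes tested were, and 2 had an unadjusted p below 0.05, where 18.6% of all genes did. The control and I13 samples carry the same replicate numbers, and their deviations from the group means correlated weakly by number (0.15 to 0.30). Such values cannot establish a pairing, so the block described below is an assumption. The deviations had the same sign in 3 of 3 pairs for Gadd45a, 1 of 3 for Gadd45b and 2 of 3 for Gadd45g. When the replicate number entered the model as a block, 0 of 3 members were called, against 1.36% of all genes called higher. With limma's voom on the recovered fragments 0 of 3 were called, and with voom and the block Gadd45b and Gadd45g were, against 3.08% of all genes called higher. The groups did not overlap for 2 of the 3 members, where 9.82% of all genes lay higher after I13 without overlap, and 2 of 3 had a log2 difference of at least 0.58, where 6.08% of all genes did. The members were chosen on this contrast, so nothing is read from these counts. The block lowered the standard error from 0.34 to 0.21 for Gadd45a, from 0.15 to 0.14 for Gadd45b and from 0.29 to 0.19 for Gadd45g, and it left the differences as they were. The median log2 difference over all genes tested was -0.005.

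The log2 differences of all 3 members were above 0 under each setting that was tried. Gadd45b, however, lay under 0.58 when the pseudocount was 1 (0.54) and when I13 replicate 3 was left out (0.53), and also in the fit with the block without both samples of replicate 3 (0.51). Gadd45g ran from 0.70 without control replicate 1 to 1.28 in the fit with the block without replicate 3. Gadd45a ran from 0.11 to 0.79, and was above 0.58 only without I13 replicate 1 or without both samples of replicate 1 (0.69).

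**Figure D3:**
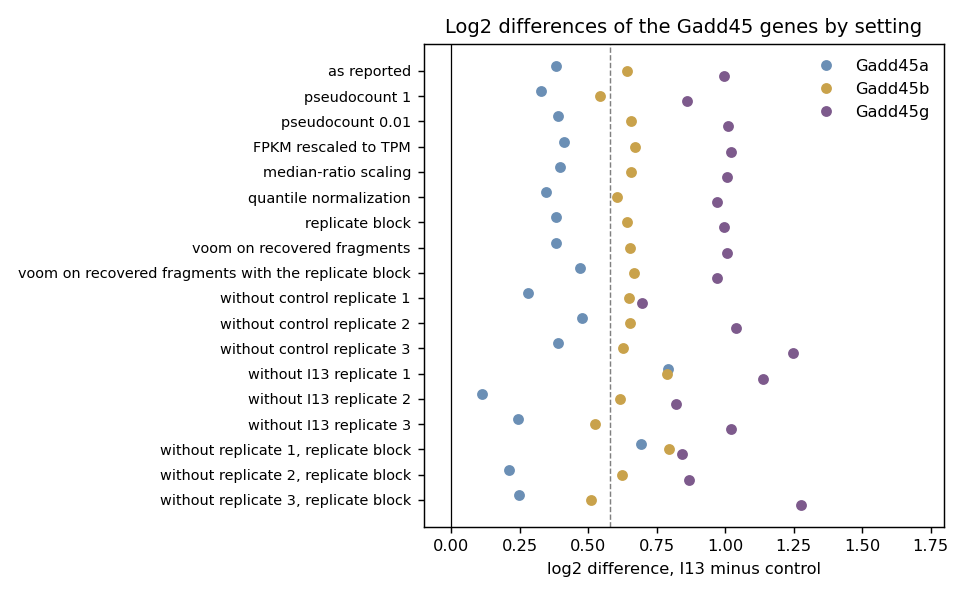
Log2 difference between I13 and control (horizontal axis, log2 scale) of Gadd45a, Gadd45b and Gadd45g under each processing setting (vertical axis). The solid line marks 0 and the dashed line the threshold of 0.58. All points lie above 0, those of Gadd45g from 0.70 to 1.28 stay above the threshold, and those of Gadd45a spread from 0.11 to 0.79.

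The MAP kinase arm was described next, with a list of 21 genes. It holds partners of GADD45 and also kinases, phosphatases and effectors of the p38 and JNK pathways. Of these, 18 were tested, 9 of them higher after I13. Limma without the block and voom without the block called none, with 3 of 18 at an unadjusted p below 0.05 against 18.6% of all genes. With the replicate block Map2k7, the JNK kinase to which GADD45B binds, was called lower. It fell from 13.9 ± 1.05 to 9.19 ± 0.618 FPKM (mean and SD over 3 samples), or by 0.59 on the log2 scale (adjusted p = 0.0392 from limma with the block, 0.0989 without it). Where 0.526% of all genes tested were called lower with the block, it was 1 of 18 here. Over 20 alternatives its adjusted p ran from 0.00638 to 0.333. Its controls had 12.8, 14.8 and 14.1 FPKM and its I13 samples 8.57, 9.21 and 9.80 FPKM, without overlap. The direct partner Map3k4 had 12.4 ± 1.04 and 11.4 ± 1.32 FPKM, and the p38 kinase Mapk14 had 75.8 and 70.0 FPKM on average. Dusp1, a phosphatase that switches off p38 and JNK, had 1.72 ± 0.289 and 3.12 ± 0.444 FPKM with a log2 difference of 0.83 (adjusted p = 0.113 from limma, 0.0222 with voom and the block, and up to 0.346 over the 20 alternatives). That of its relative Dusp16 was 0.53 and that of the p38 target kinase Mapkapk2 was -0.24. The median of the list was -0.02.

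The partners of GADD45 in the cell cycle, in excision repair and in DNA demethylation formed a list of 21 genes, of which 19 were tested and 7 were higher after I13. Without the block limma and voom called none, with 5 of 19 at an unadjusted p below 0.05 against 18.6% of all genes. With the replicate block 2 of 19 were called, both lower, against 0.526% of all genes called lower. Cdc25b, a phosphatase that activates CDK1, fell from 15.2 ± 0.766 to 9.66 ± 0.801 FPKM, a log2 difference of -0.65 (adjusted p = 0.0447 from limma with the block, 0.086 without it). Tet3, an enzyme that oxidises methylated cytosine, fell from 13.3 ± 1.98 to 8.81 ± 0.983 FPKM, a log2 difference of -0.58 (adjusted p = 0.0464 with the block, 0.12 without it). Over the 20 alternatives the adjusted p of Cdc25b ran from 0.00638 to 0.298 and that of Tet3 from 0.0057 to 0.333. Each was called in 2 of these, both with the block and all samples. The log2 difference of Tet3 ran from -0.67 to -0.466, across the threshold of 0.58 in size. Cdk1 itself had 23.7 ± 2.97 and 21.3 ± 2.28 FPKM. The CDK inhibitor Cdkn1a, which binds GADD45 proteins and is a p53 target, had 124 ± 23.3 and 148 ± 29.9 FPKM with a log2 difference of 0.25, and the excision nuclease Ercc5 had one of 0.17. Of the list, 5 of 19 lay lower after I13 without overlap and 0 of 19 higher, where 15.4% and 9.82% of all genes did.

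Genes that share the inducers of the Gadd45 family were taken from a list of 32 genes induced through p53 or by the integrated stress response, of which 26 were tested and 19 were higher after I13. Limma and voom without the block called none, with 10 of 26 at an unadjusted p below 0.05 against 18.6% of all genes. With the block 2 of 26 were called, both higher, against 1.36% of all genes called higher. Mdm2, the ubiquitin ligase that restrains p53, rose from 14.3 ± 1.43 to 23.7 ± 2.67 FPKM, a log2 difference of 0.72 (adjusted p = 0.0322 from limma with the block, 0.0989 without it). Fas, a death receptor, rose from 3.49 ± 0.938 to 6.33 ± 0.439 FPKM, a log2 difference of 0.88 (adjusted p = 0.0472 from limma with the block, 0.116 without it). Their adjusted p ran from 0.00195 to 0.298 and from 0.0156 to 0.333 over the 20 alternatives. Without both samples of replicate 1 Mdm2 alone was called in the fit with the block, and without those of replicate 2 or 3 neither was. Mdm2 and Polk, like the members Gadd45b and Gadd45g, are among the genes that the study named for the chronic myeloid leukemia pathway. The study drew its pathway genes from those it called at the same thresholds of adjusted p and log2 difference. Limma without the block called none of Mdm2, Polk, Gadd45b and Gadd45g here, and the reason for the difference was not tested. The study picked these genes on these same samples, so their direction is no independent evidence. With voom and the block 5 of 26 were called, all higher, against 3.08% of all genes called higher, the other 3 being Trp53inp1, Btg2 and Rrm2b. Their log2 differences were 1.29, 0.90 and 0.62, with adjusted p of 0.0989, 0.221 and 0.127 from limma without the block. With the block limma gave 0.05035, 0.08404 and 0.07545, and each gene was called in 1 of the 20 alternatives. The median of the list was 0.18, and 9 of 26 lay higher without overlap, against 9.82% of all genes.

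The lowest log2 differences of the same list belonged to Trib3 and Asns, both known as targets of ATF4, the transcription factor of the integrated stress response, and neither was called. Trib3 had a log2 difference of -0.86 with a standard error of 0.64, and Asns, asparagine synthetase, one of -0.59 with a standard error of 0.34. Set beside Gadd45a, a comparison chosen after the values were seen, Trib3 had 57.3 FPKM in control replicate 1, at most 24.4 FPKM in the other controls, and 6.38, 25.6 and 34.2 FPKM in I13 replicates 1, 2 and 3. Asns had 144, 123 and 75.5 FPKM in the controls and 45.5, 93.1 and 93.3 FPKM after I13. Atf4 had 377, 239 and 167 FPKM in the controls and 125, 222 and 252 FPKM after I13. In all of these, as in Gadd45a, I13 replicate 1 was the lowest of the 6 samples. The controls, in contrast, were ordered differently, with control replicate 1 the lowest for Gadd45a and the highest for Trib3, Asns and Atf4. Whether the low values in I13 replicate 1 are related was not tested.

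Transcription factors that act on Gadd45 genes formed a list of 18 genes, of which 15 were tested and 4 were higher after I13. Limma called none without or with the block, and voom called none either, with 3 of 15 at an unadjusted p below 0.05 without the block against 18.6% of all genes. Foxo4 had 12.4 ± 0.28 and 8.82 ± 0.685 FPKM, a log2 difference of -0.49 (adjusted p = 0.109 from limma). The log2 difference of Myc, which represses Gadd45a, was 0.37, and that of Brca1 was 0.31. Trp53, the gene of p53, had 73.6 ± 4.75 and 58.3 ± 1.89 FPKM, without overlap (adjusted p = 0.127 from limma). The median of the list was -0.06.

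Genes described together with Gadd45b as early responses of myeloid cells formed a list of 10 genes, of which 8 were tested and 7 were higher after I13. Limma called none without or with the block, and voom called none without it, with 2 of 8 at an unadjusted p below 0.05 against 18.6% of all genes. With voom and the block Fos was called, 1 of 8 against 3.08% of all genes called higher, at 1.03 ± 0.274 FPKM in the control and 1.95 ± 0.748 FPKM after I13 (adjusted p = 0.0295, against 0.229 from limma without the block and up to 0.512 over the 20 alternatives). Ppp1r15a, also known as GADD34 and MyD116, had 11.3 ± 0.838 and 15.2 ± 1.08 FPKM without overlap, a log2 difference of 0.43 (adjusted p = 0.12 from limma). Jun had a log2 difference of 0.94 with a standard error of 0.52, and Irf1 had one of -0.29. The median of the list was 0.38. Cdkn1a, Ppp1r15a and Egr1 each stand in more than one of the lists.

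**Figure D4:**
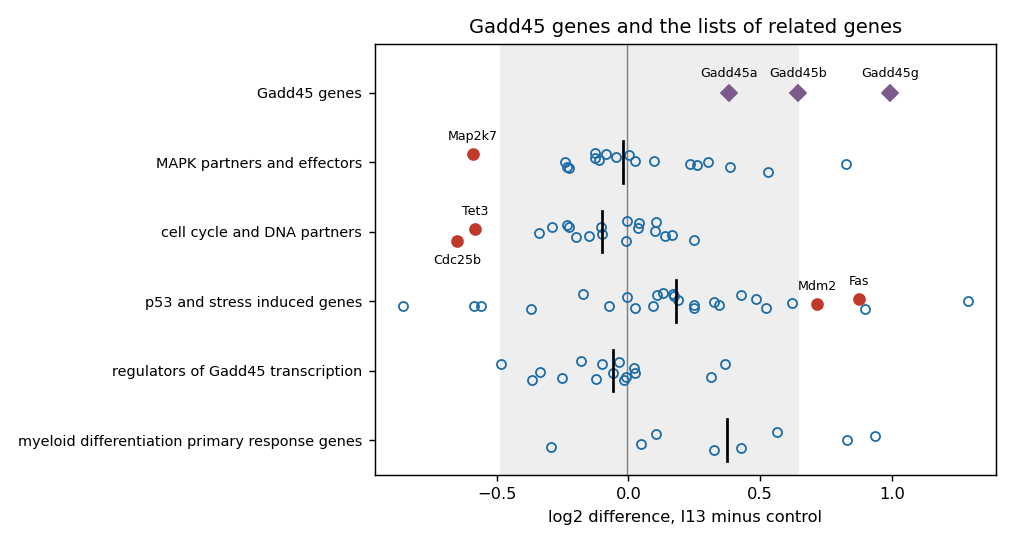
Log2 difference between I13 and control (horizontal axis, log2 scale) of the Gadd45 genes (diamonds) and of the tested genes of 5 lists (circles, one row each, spread vertically for legibility). Filled circles were called with the replicate block, black bars are list medians, the grey line is the median and the grey band the range from percentile 5 (-0.48) to percentile 95 (0.64) of all 12163 genes tested. Mdm2 and Fas stand to the right, and Map2k7, Cdc25b and Tet3 to the left.

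The genes whose pattern over the 6 samples was most like that of a member were sought by the Pearson correlation of log2(FPKM + 0.1) among 10867 genes with a mean of at least 1 FPKM. For Gadd45b these were Lats2 (0.995), a kinase of the Hippo pathway, Rassf1 (0.991), a RAS-association domain protein of the same pathway, and St6galnac4 (0.989), a sialyltransferase. Rassf1 had 2.65, 2.71 and 2.55 FPKM in the controls and 3.39, 3.79 and 4.32 FPKM after I13. For Gadd45g they were Tmem123 (0.993), Dock11 (0.989) and Gm43145 (0.984). Tmem123 had 58.4, 68.5 and 74.9 FPKM in the controls and 81.3, 93.5 and 88.7 FPKM after I13, the same order of samples as in Gadd45g. For Gadd45a they were Def6 (0.973), Ccdc57 (0.958) and Fam13b (0.951). Def6 had its lowest value, 36.0 FPKM, in I13 replicate 1 and its highest, 46.5 FPKM, in I13 replicate 2, as Gadd45a did. A coefficient above 0.95 was reached by 3 genes for Gadd45a, 21 for Gadd45b and 55 for Gadd45g. Among the members themselves the coefficients were 0.77 for Gadd45b and Gadd45g, 0.70 for Gadd45a and Gadd45b and 0.64 for Gadd45a and Gadd45g. These coefficients rest on 6 samples that share libraries and treatment groups and are given as a description.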

How the data were processed

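The authors deposited FPKM values for 22413 genes in 6 samples, without pooling and with no scaling between samples stated. Per the submitters' processing notes, Trimmomatic, HISAT2, Cufflinks and HTSeq were used, with the human build hg38, and the labels name the organism as human. The gene identifiers are those of mouse genes and the paper calls the cells murine, so the values were read as mouse genes. The build behind them is thus unsettled, and no coordinates were used. The number of sample columns that could not be mapped was 0. The authors' test is not given in the sources used here.

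Fragments were recovered with the smallest whole gene length that gives whole numbers in all 6 samples, within 0.03 fragments, for 22412 genes. Log2(FPKM + 0.1) was compared with limma 3.58.1 in R 4.3.3 (eBayes with a trend) over the 12163 genes with a mean of at least 0.5 FPKM, and the code was tested on simulated data. To test pairing by replicate number, deviations from the group means were correlated, giving 0.15 to 0.30 for same-numbered samples and -0.26 to 0.05 for others. The former were all above 0.1, so the numbers were taken as pairs, though no label states a pairing. Since each group was centred on its own mean, the correlations of a sample with the other group largely cancel out. The negative values for others are thus partly forced and are no separate evidence of pairing. Some matching of the samples likewise tends to come out positive without any pairing. The values of 0.15 to 0.30 therefore cannot establish a pairing, and the calls with the block rest on that assumption. The labels give no batch or day. The fit with the block leaves 2 residual degrees of freedom. The members, lists and tests were chosen with earlier results of these data known. The genes named are the members, the list genes called with or without the block, the 2 highest and 2 lowest log2 differences of each list at a mean of at least 1 FPKM, and the 3 genes most like each member. Others, such as Map3k4, Mapk14, Cdk1, Trp53, Polk, Ppp1r15a, Rrm2b and the markers, were chosen after their values were seen. The alternatives were other pseudocounts, filters, scalings and eBayes settings, the block, voom and leaving out samples. Plots used matplotlib 3.10.9 (Python 3.11.15).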

Additional observations from a re-analysis of the deposited data

How the results depend on the processing

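Without the block 4 genes were called higher and 1 lower. A pseudocount of 0.01, median-ratio scaling and quantile normalization each gave 2 higher and 0 lower, and no filter on low values or eBayes without a trend gave 3 lower. With the replicate block 166 genes were called higher and 64 lower. These took in 1 gene of the list of MAP kinase partners and effectors, 2 of cell cycle and DNA partners and 2 of p53 and stress genes. With voom and the block the counts were 375 and 128, and 2, 2 and 5 in these lists, with 1 in the myeloid list. When samples were left out, the calls ran from 0 to 78 higher, from 0 to 5 lower and from 0 to 1 in the p53 and stress list. The highest of each came from the fit with the block without both samples of replicate 1, an alternative chosen after seeing the data. The cause was not tested, other than that fewer samples enter these fits. The log2 differences of the 3 members kept their sign in all 51 recomputed values. They moved by less than 1 SD between replicates, but leaving out 1 of 3 samples of a group cannot move them by more. Nothing is therefore read from that limit. Gadd45a, at 0.38 with all samples, ran from 0.11 without I13 replicate 2 to 0.79 without I13 replicate 1. Beside the calls in these lists, the block changed those of the markers Csf2rb, Csf2rb2 and Hba-a1 and, under voom, of Gadd45b, Gadd45g and the further genes named in the report as called by voom with the block. The marker Spn, with a log2 difference of 0.63, was also called by voom with the block and not by limma. With 60 to 222 fragments on a member per sample, counting error alone was 7.48 to 10.6% of a level on average, which limits what these libraries resolve.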
